A study of Mus musculus with 12 samples.

Results

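XEN-like cells are the extraembryonic endoderm cells that mouse ES cells turn into when Gata6 is switched on. The XEN-like cells lacking Sox7 were compared at day 4 with those that kept 1 working allele, using the 3 Sox7-/- and the 3 Sox7+/- XEN-like samples named so by genotype, treatment and day in the sample labels, 6 of the 12 arrays of the study. All 6 carried Gata6GR, a Gata6 protein fused to the ligand-binding part of the glucocorticoid receptor and expressed from a piggyBac vector with the CAG promoter. All 6 had been cultured with dexamethasone (Dex), which brings the fusion protein into the nucleus. The other 6 arrays hold the ES cells of the same lines, cultured without Dex and also labelled day 4, 3 for each genotype, and were used here for comparison. In the Sox7+/- line, derived from EB3 ES cells, a puromycin-resistance cassette had taken the place of Sox7 on 1 chromosome, and the Sox7-/- line had been selected from it with a high dose of puromycin. Each genotype is thus 1 line, so genotype and line cannot be told apart, and no wild-type cells are among the samples. That the 3 arrays of each kind came from separate cultures is stated in none of the sources used here. The p-values therefore measure the spread between these arrays, which may be technical.

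Primitive endoderm gives rise to the visceral endoderm, which covers the embryo, and to the parietal endoderm, which lines the trophectoderm. Visceral endoderm is a polarized epithelium that takes up maternal nutrients through apical microvilli and endocytic receptors, digests them in lysosomes and secretes apolipoproteins and other serum proteins, under transcription factors such as Hnf4a. Parietal endoderm cells are loosely attached and migratory and lay down the thick laminin and collagen IV sheet of Reichert's membrane. Sox7, a group F Sox factor related to Sox17, is expressed in primitive endoderm and most strongly in parietal endoderm.

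Levels are given as relative signals, in which 1 is the 75th percentile of the processed signals of the same array, and differences as log2 of Sox7-/- minus Sox7+/-. Calls needed both a size over 2-fold and a p from limma under 0.05 after Benjamini-Hochberg adjustment. Where a gene was not well above background on any array of a group, the fold is a lower bound, taken against the dimmest signal that was well above background on those arrays, and is written as "at least". The third Sox7+/- XEN-like array stood apart. It correlated with the other 2 at r = 0.983, against 0.996 between those 2 and 0.995 to 0.997 among the Sox7-/- arrays (Pearson's r across the probes tested). By the brightest probe of each gene, 680 genes on it differed over 2-fold from the mean of the other 2, 265 above and 415 below, whereas the other XEN-like arrays had between 22 and 199 such genes. Long noncoding transcripts were among those that were high on this array. The median log2 level of the lincRNA region probes was -1.15 there, -1.48 and -1.41 on the other Sox7+/- arrays and between -1.70 and -1.58 on the Sox7-/- arrays. Airn, a nuclear noncoding RNA chosen after its values were seen, had relative signals of 7.23, 7.91 and 37.8 in Sox7+/- cells and of 4.16, 2.86 and 4.05 in Sox7-/- cells. Results are therefore also given without this array where they depend on it. The Sox7-/- XEN-like replicate 1 lay on a slide with the Sox7-/- ES arrays and the other 5 XEN-like arrays on the second slide. The Sox7+/- ES arrays also lay on the second slide, so in the ES cells genotype and slide cannot be told apart. Sox7-/- XEN-like cells were the only group on both slides.

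In Sox7-/- XEN-like cells 904 of 23171 probes were higher (3.9%) and 797 were lower (3.44%). Of the higher probes 275 were not above background on any Sox7+/- array, and of the lower probes 47 on any Sox7-/- array. They entered the test only through the group where they were high. With a filter on all 6 XEN-like arrays 489 probes were higher and 624 lower. Genes were read by their brightest probe, and of 12723 genes with a RefSeq symbol 648 were higher (5.09%) and 373 lower (2.93%), with a median difference of 0.09 over all genes. Of the 904 probes 187 were over 4-fold and 48 over 8-fold higher, and of the 797 probes 106 were over 4-fold and 28 over 8-fold lower. The groups did not overlap for 899 of the 904 and 784 of the 797, so a lack of overlap adds little to a call. Of the 3238 lincRNA region probes tested 59 were higher (1.82%) and 171 lower (5.28%), against 4.71% and 3.0% of the probes with a RefSeq symbol. Without Sox7+/- replicate 3, 859 probes were higher and 670 lower, of which 752 and 552 were also called with it. With the spike-in controls as the reference the counts were 1466 higher and 425 lower and the median of all probes moved from 0.02 to 0.26, and in the deposited table, which is neither scaled nor background-subtracted, which therefore differs in both respects, they were 1159 and 129 with a median of 0.38. All differences below are relative to the 75th percentile.

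Endoderm functions were read from 22 gene lists with 468 distinct genes tested, and 51 of the 617 genes matched stood in more than 1 list. Of the 468 genes 84 were higher (17.9%) and 40 lower (8.55%) in Sox7-/- cells, against 5.09% and 2.93% of all genes. The lists were chosen with earlier results of these data known, so their shares describe the lists and are not a test of them. Visceral endoderm markers, apolipoproteins, brush border genes and epithelial junction genes had the largest shares of higher genes, and cardiac and mesenchymal genes the largest shares of lower genes. The plot of the lists gives the counts and the medians.

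**Figure D1:**
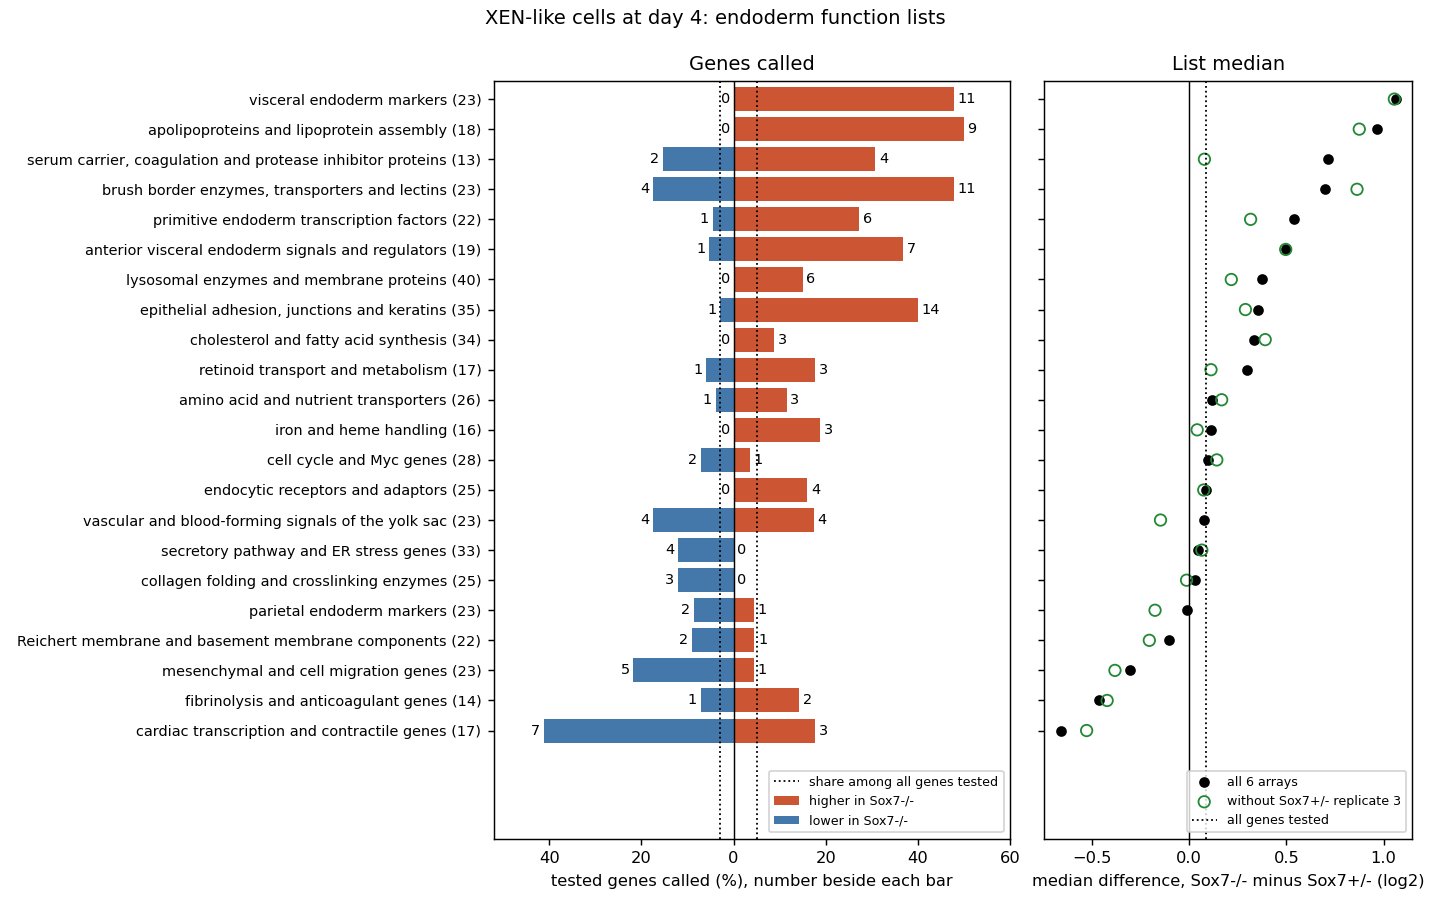
Endoderm function lists in XEN-like cells at day 4, ordered by median, with the number of tested genes in parentheses. Left, percentage of the tested genes called higher (red, to the right) or lower (blue, to the left) in Sox7-/- cells, with the number of genes beside each bar and, dotted, the shares among all genes tested (5.09% and 2.93%). Right, median log2 difference of each list with all 6 arrays (black) and without Sox7+/- replicate 3 (open green circles), and, dotted, that of all genes (0.09). The visceral endoderm markers had the highest median and the cardiac genes the lowest, and the median of the serum proteins was close to that of all genes without that replicate.

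Sox7 itself was read by a probe at chr14:64569419-64569478 (mm9). Its relative signal was 4.90, 4.95 and 6.88 in Sox7+/- and 0.0235, 0.0153 and 0.0148 in Sox7-/- XEN-like cells, where it was not well above background on any array, and the level was at least 72.6-fold lower (log2 difference -8.30 ± 0.20 SE, adjusted p = 3.55e-09). The groups did not overlap. The probe starts at base 3115 of the transcript, 3′ of the coding part that the targeting replaced, so it does not itself check the deletion. Of the 22 primitive endoderm transcription factors tested, 6 were higher and Sox7 alone was lower, with a list median of 0.54 that was 0.32 without Sox7+/- replicate 3.

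Among the early factors of the lineage, Gata4, Sox17 and Foxa2 were at similar levels in both genotypes. Gata4, a zinc-finger factor of primitive endoderm, had relative signals of 32.3, 34.8 and 26.8 in Sox7+/- and 35.0, 34.4 and 33.2 in Sox7-/- cells (difference 0.13 ± 0.09, adjusted p = 0.289). Sox17, the other group F Sox factor of this lineage, had 66.4, 56.7 and 51.9 against 57.0, 68.6 and 58.9 (0.08 ± 0.11, adjusted p = 0.596). Foxa2, a forkhead factor, had 43.5, 41.3 and 31.1 against 39.0, 39.3 and 37.5 (0.01 ± 0.12, adjusted p = 0.942). The groups overlapped for Gata4, Sox17 and Foxa2. Gata6 was at 18.4, 19.8 and 10.7 in Sox7+/- and at 23.7, 25.1 and 24.1 in Sox7-/- cells, a difference of 0.62 ± 0.19 that passed the p threshold (adjusted p = 0.0239) but not 2-fold. Without Sox7+/- replicate 3 the difference was 0.34. Its groups did not overlap, and whether this probe also reads Gata6GR is not given in the sources used here.

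Hnf4a and some other factors were higher, while 15 of the 22 primitive endoderm transcription factors tested were not called. Hnf4a, a nuclear receptor that drives apolipoprotein and serum protein genes, had relative signals of 8.87, 9.19 and 7.57 in Sox7+/- and 23.3, 24.4 and 21.1 in Sox7-/- cells (1.43 ± 0.10, adjusted p = 2.93e-06). Every Sox7-/- array was above every Sox7+/- array. Creb3l3, a liver factor of lipid metabolism, rose from 0.206, 0.226 and 0.301 to 1.83, 1.39 and 1.27 (2.62 ± 0.16). Eomes, a T-box factor of anterior visceral endoderm and trophoblast, rose from 0.491, 0.456 and 0.514 to 1.59, 2.01 and 1.83 (1.89 ± 0.09), and Elf3, an epithelial Ets factor, from 1.61, 1.45 and 1.73 to 3.96, 3.81 and 3.91 (1.29 ± 0.08).

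**Figure D2:**
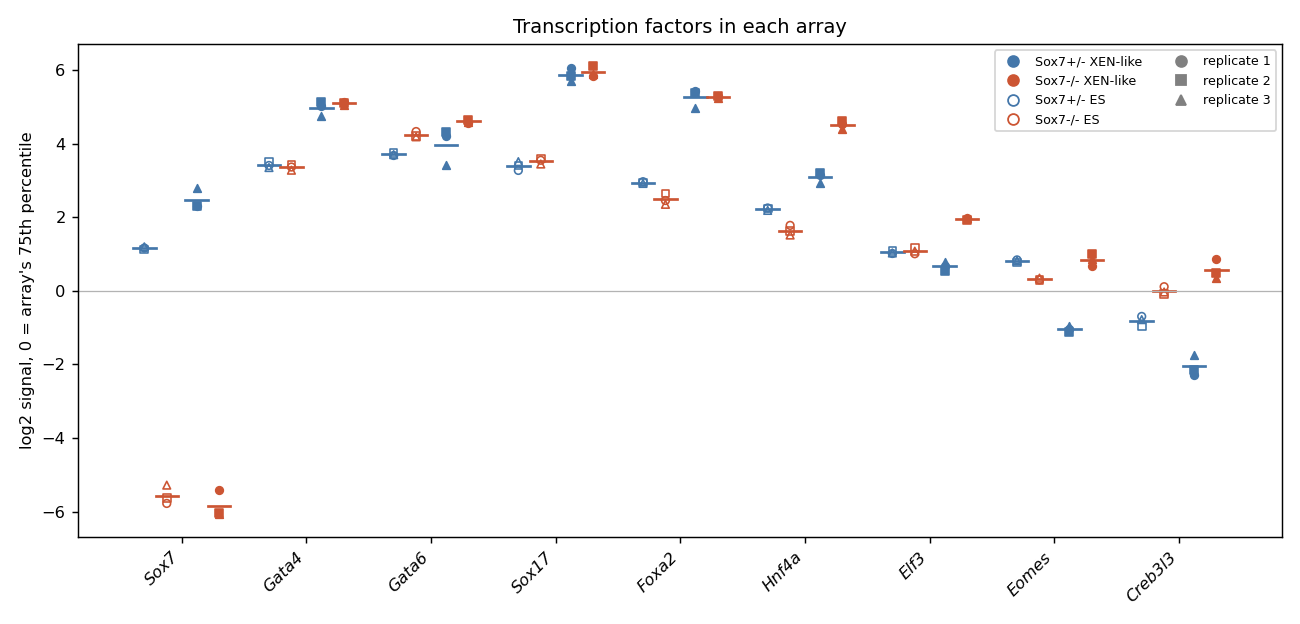
Log2 signal of Sox7 and 8 other transcription factors on each of the 12 arrays, where 0 is the 75th percentile of the array. Filled symbols are XEN-like cells and open symbols ES cells, blue is Sox7+/- and red Sox7-/-, symbol shapes are replicates and bars are group means. Gata4, Sox17 and Foxa2 overlap between the XEN-like groups, while Hnf4a, Elf3, Eomes and Creb3l3 are higher on all 3 Sox7-/- XEN-like arrays and Sox7 is lower.

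The letters of 4 motifs were looked for in the 250 bases before the start of each gene (RefSeq, GRCm38.p6), on both strands. A gene was counted if any of its promoters held the letters. The Hnf4 letters CAAAGTCCA were in 4 of the 477 higher genes that had a promoter sequence (0.839%) and in 1 of 274 lower genes (0.365%). They were in 37 of 10103 tested genes (0.366%) and in 0.451% of all 27025 genes with a promoter sequence. The GATA letters AGATAA were in 7.76% of higher, 10.9% of lower, 7.24% of tested and 11.4% of all genes. The SOX letters ACAAAG were in 15.3% of higher, 16.1% of lower, 14.6% of tested and 18.6% of all genes, and ACAAT in 17.8%, 25.9%, 21.4% and 30.9%. None of these motifs contains another, though a SOX match to ACAAAG can overlap the start of an Hnf4 match, and a match is only a description of the letters. The promoter of the mucin gene Muc13 is shown because this gene was higher and holds the Hnf4 letters, set in capitals. It lies at chr16:33794239-33794488 (plus strand) and runs up to the base before the start.
Muc13: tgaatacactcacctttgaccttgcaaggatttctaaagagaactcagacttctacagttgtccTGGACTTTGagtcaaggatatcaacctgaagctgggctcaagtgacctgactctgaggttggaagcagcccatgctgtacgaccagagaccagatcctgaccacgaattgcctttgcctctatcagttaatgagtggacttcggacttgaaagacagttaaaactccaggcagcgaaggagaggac
The Hnf4 letters lie on the opposite strand, starting 186 bases before the start.

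Of 18 genes of lipoprotein assembly tested 9 were higher and none was lower, with a list median of 0.97. Apom, an apolipoprotein of high-density particles, had relative signals of 0.413, 0.267 and 0.322 in Sox7+/- and 5.60, 5.52 and 4.93 in Sox7-/- cells (4.02 ± 0.16, adjusted p = 9.63e-08). Mttp, the transfer protein that loads lipid onto apolipoprotein B, had 2.19, 2.35 and 2.05 against 9.22, 10.2 and 8.98 (2.11 ± 0.10), and Soat2, which esterifies cholesterol for these particles, 1.70, 1.71 and 1.65 against 6.94, 7.03 and 6.56 (2.02 ± 0.07). No Sox7-/- array overlapped a Sox7+/- array for any of these. Apoa4 was at least 3.36-fold and the fatty acid binding protein Fabp1 at least 3.71-fold higher, since neither was well above background in Sox7+/- cells. Apoe, a major apolipoprotein, was at 138, 141 and 117 against 222, 200 and 178, a difference of 0.60 that stayed under 2-fold. Apoa1 and Apob were not well above background on any of the 6 arrays. Fabp2 was called with a difference of 1.61, which was 0.90 without Sox7+/- replicate 3.

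Of the serum carrier, coagulation and protease inhibitor genes 4 were higher and 2 lower of 13 tested. F2, prothrombin, rose from 2.57, 2.36 and 2.42 to 15.9, 14.3 and 13.3 (2.56 ± 0.09, adjusted p = 4.22e-08). Ttr, the thyroxine and retinol carrier transthyretin, rose from 2.29, 2.59 and 1.28 to 6.46, 6.27 and 5.57 (1.63 ± 0.37, adjusted p = 0.00633). Clu, a secreted chaperone, fell from 97.1, 93.9 and 64.6 to 30.3, 27.1 and 27.9 (-1.56 ± 0.14). Ahsg, the carrier fetuin A, fell from 0.856, 0.851 and 0.795 to 0.361, 0.386 and 0.369 (-1.16 ± 0.10). The groups did not overlap for F2, Ttr, Clu or Ahsg. The list median was 0.71 with all arrays and 0.08 without Sox7+/- replicate 3. Afp and Alb, serum proteins of later visceral endoderm and liver, were below background in both genotypes.

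The endocytic receptor complex of visceral endoderm was uneven. Cubn, the receptor cubilin for vitamin B12 carrier and albumin, was at 8.72, 10.1 and 20.1 in Sox7+/- and 75.2, 70.6 and 68.6 in Sox7-/- cells (2.56 ± 0.26, adjusted p = 5.40e-05), and a second probe gave 3.28. Amn, amnionless, which brings cubilin to the apical membrane, was at 4.61, 4.81 and 6.04 against 49.4, 48.7 and 42.2 (3.19 ± 0.11, adjusted p = 4.59e-08). Dab2, the adaptor of these receptors, was at 23.3, 23.0 and 22.2 against 45.9, 50.4 and 48.1 (1.07 ± 0.08). All Sox7-/- arrays were above all Sox7+/- arrays for Cubn, Amn and Dab2. Lrp2, megalin, the partner receptor of cubilin, was at 56.7, 62.1 and 134 against 59.1, 49.2 and 56.0 and was not called (-0.51 ± 0.28, adjusted p = 0.181). Its difference was -0.12 without Sox7+/- replicate 3. In the whole list of endocytic receptors and adaptors 4 of 25 were higher, the other being the sorting receptor Sorl1 (1.09), none was lower, and the median was 0.09, that of all genes.

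Of 40 lysosomal genes 6 were higher and none lower, and 35 differences were above 0, against 60.4% over all genes. The median was 0.37, and 0.22 without Sox7+/- replicate 3. Ctsc, the peptidase cathepsin C, was at 1.07, 1.10 and 0.763 against 8.30, 8.13 and 7.13 (3.02 ± 0.14, adjusted p = 3.23e-07). Hexa, a subunit of hexosaminidase, was at 12.7, 12.9 and 6.19 against 51.2, 46.2 and 44.8 (2.23 ± 0.24), and Ctsh, cathepsin H, at 35.3, 36.6 and 28.2 against 99.9, 92.7 and 84.6 (1.48 ± 0.11). These did not overlap between groups. Without Sox7+/- replicate 3, 4 genes were higher, and the activator Gm2a was under 2-fold (0.71).

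Brush border genes split by kind. Of 23 tested, 11 were higher and 4 lower. Zg16, a lectin of secretory granules and mucus, had the largest difference of the genes above background in both groups, from 0.512, 0.374 and 0.238 to 11.5, 11.1 and 10.3 (4.94 ± 0.29, adjusted p = 1.29e-06). The galectins Lgals2, from 0.573, 0.576 and 0.831 to 6.46, 5.30 and 4.61, and Lgals3, from 0.64, 0.561 and 0.361 to 2.71, 2.88 and 2.89, rose by 3.06 and 2.48. Scaffold and actin genes of microvilli were higher too. Slc9a3r1, which anchors membrane proteins to ezrin, rose from 1.26, 1.21 and 0.938 to 6.40, 5.46 and 5.09 (2.32 ± 0.12). Its partner Pdzk1 rose by 1.80, the actin-capping Eps8 by 1.68, and the bundling protein Vil1, villin, was at least 1.69-fold and the sodium-proton exchanger Slc9a3 at least 1.69-fold higher. Muc13, a transmembrane mucin, was at least 4.39-fold higher. Outside this list Myo7a, a myosin of microvilli and stereocilia, was at 1.15, 1.14 and 1.05 against 12.2, 11.6 and 12.1 (3.43 ± 0.07, adjusted p = 6.97e-10).

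The 4 lower brush border genes were all membrane peptidases. Anpep, aminopeptidase N, fell from 4.73, 4.13 and 6.32 to 0.614, 0.452 and 0.532 (-3.23 ± 0.15, adjusted p = 3.16e-07). Mep1b, meprin beta, fell from 0.337, 0.339 and 0.618 to 0.136, 0.17 and 0.122 (-1.55 ± 0.21). Enpep, aminopeptidase A, fell from 2.30, 2.25 and 4.47 to 1.46, 1.03 and 1.23 (-1.21 ± 0.27), and Ace, angiotensin-converting enzyme, from 0.291, 0.287 and 0.302 to 0.159, 0.126 and 0.13 (-1.09 ± 0.29). Groups did not overlap for any of the 4. Without Sox7+/- replicate 3 the difference of Enpep was -0.89, under 2-fold. The peptidases Dpp4 (0.70) and Mme (0.02) were not called, and another surface enzyme, Ggt1, gamma-glutamyl transferase, rose by 2.78.

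Of 35 genes of epithelial junctions tested 14 were higher and 1 lower, with a median of 0.36. Cdh1, E-cadherin, was at 1.10, 0.886 and 0.646 in Sox7+/- and 3.30, 2.77 and 3.04 in Sox7-/- cells (1.82 ± 0.16, adjusted p = 1.67e-05). The claudins Cldn6, from 3.54, 3.68 and 1.99 to 10.7, 10.3 and 9.30, and Cldn7, from 8.98, 8.84 and 7.27 to 25.8, 23.7 and 23.3, rose by 1.77 and 1.54, and Cldn9 by 1.79. Tjp3, a tight junction scaffold, rose by 1.89, the polarity protein Crb3 by 1.57, Marveld2, of tricellular junctions, by 1.36 and Ap1m2, an epithelial sorting adaptor, by 2.21. Desmosome and keratin genes gave other values. Pkp2, a desmosome plakophilin, fell from 4.87, 4.39 and 4.99 to 1.96, 1.81 and 1.80 (-1.35 ± 0.07), and Krt8 (0.09), Krt18 (0.01), Dsp (0.13) and Jup (0.16) were not called.

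Of 23 mesenchymal and migration genes 5 were lower and 1, S100a6, was higher, with a median of -0.30, which was -0.06 with spike-in scaling and 0.13 in the unscaled deposited table. Cdh2, N-cadherin, fell from 7.50, 7.04 and 3.44 to 1.16, 1.18 and 1.21 (-2.26 ± 0.24, adjusted p = 6.27e-05). Zeb1 and Zeb2, repressors of E-cadherin, fell from 0.935, 1.10 and 0.754 to 0.261, 0.315 and 0.323 (-1.62) and from 0.606, 0.597 and 0.251 to 0.0967, 0.0908 and 0.0935 (-2.26). Vim, the intermediate filament vimentin, fell from 32.0, 31.8 and 14.1 to 9.85, 12 and 10.8 (-1.16 ± 0.26), and Fn1, fibronectin, from 10.6, 11.1 and 5.71 to 4.18, 3.77 and 4.17 (-1.11 ± 0.22). Sox7+/- replicate 3 was the lowest of its group for all 5 and still above the Sox7-/- arrays. Without it the differences were larger, -2.62 for Cdh2, -1.56 for Vim and -1.42 for Fn1. Snai1, another repressor of E-cadherin, was not called (-0.84).

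**Figure D3:**
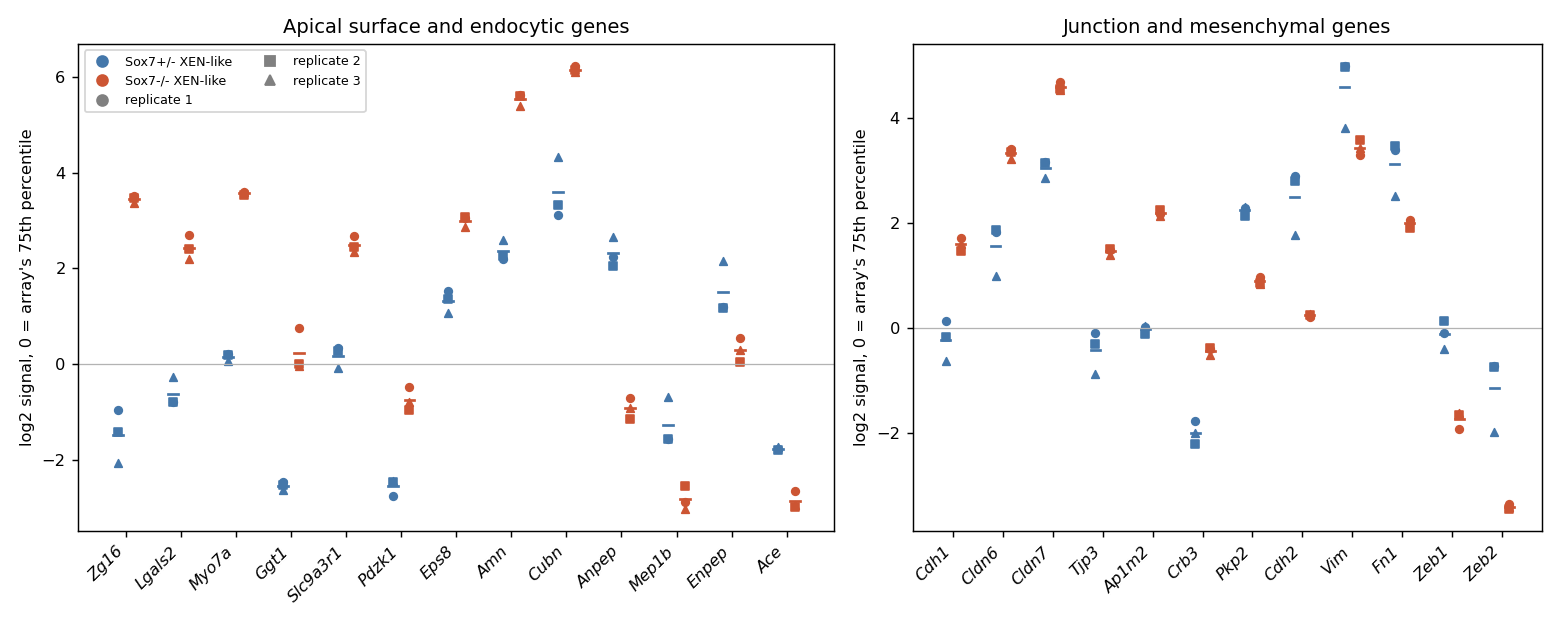
Log2 signal on each of the 6 XEN-like arrays of apical surface and endocytic genes (left) and of junction and mesenchymal genes (right), where 0 is the 75th percentile of the array. Blue is Sox7+/-, red Sox7-/-, shapes are replicates and bars are group means. The groups are apart for every gene shown, as they are for almost all called probes. The peptidases Anpep, Mep1b, Enpep and Ace and the genes Pkp2, Cdh2, Vim, Fn1, Zeb1 and Zeb2 are lower in Sox7-/- cells. The other genes are higher there.

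Few basement membrane genes, the main product of parietal endoderm, differed over 2-fold. Of 22 tested, 1 was higher and 2 lower, while 3 passed the p threshold upwards and 9 downwards whatever their size. The median was -0.10, with values of 0.14 under spike-in scaling, 0.25 in the deposited table and -0.20 without Sox7+/- replicate 3. The summed level of the list was 3748 to 4112 in Sox7+/- and 3302 to 3492 in Sox7-/- cells. Lama1, the laminin chain of Reichert's membrane, was at 659, 750 and 767 against 605, 564 and 601 (-0.29 ± 0.08), and Col4a1, of collagen IV, at 281, 293 and 216 against 264, 250 and 264 (-0.01 ± 0.11). Neither was called, and the groups overlapped for Col4a1. Lama4, a laminin chain of vessels, was at 0.83, 0.79 and 1.63 against 0.0448, 0.0541 and 0.0346, not above background in Sox7-/- cells and at least 13.5-fold lower. Of 25 collagen folding and crosslinking enzymes none was higher and 3 were lower, Fkbp7 (-1.47), Pcolce2 (-1.47) and P4ha1 (-1.37). Of the 23 parietal endoderm markers, 6 of which are basement membrane genes counted above, 1 was higher and 2, Vim and the microfibril gene Fbn1 (-1.40), were lower, with a median of -0.01 that was -0.17 without Sox7+/- replicate 3. The summed level of the whole parietal list was 4582 to 4929 in Sox7+/- and 4117 to 4260 in Sox7-/- cells, whereas that of the visceral list was 606 to 662 against 1035 to 1152. Of 23 visceral endoderm markers 11 were higher and none lower, with a median of 1.06. This list shares genes with those above, and its other higher members were Tdh (1.62), Spink1 (1.49), Npl (1.26) and Ihh (1.25).

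Of 19 anterior visceral endoderm genes tested 7 were higher in Sox7-/- cells and 1 lower, with a median of 0.50. Sfrp5, a secreted Wnt inhibitor, was at 9.20, 8.81 and 8.85 against 52.6, 49.0 and 44.9 (2.44 ± 0.11, adjusted p = 3.27e-07). Cfc1, Cryptic, a co-receptor of Nodal, was at 16.4, 16.2 and 15.9 against 68.8, 73.1 and 68.6 (2.12 ± 0.08), and the Wnt antagonist Dkk1 at 10.5, 11.1 and 8.78 against 21.0, 22.5 and 21.2 (1.10 ± 0.10). No arrays overlapped, and Dkk1 was just under 2-fold without Sox7+/- replicate 3 (0.997). The homeodomain factor Hesx1 was at least 3.44-fold higher. Shisa2, an inhibitor of Wnt and Fgf receptors, was lower (-1.35). Cer1, Lefty1, Otx2 and Lhx1, defining genes of anterior visceral endoderm, were not above the background filter in either genotype.

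Signals from the yolk sac to vessels and blood moved both ways, 4 higher and 4 lower of 23. Ccn2, a matricellular target of Yap, fell from 155, 153 and 57.0 to 23.9, 21.5 and 24.4 (-2.25 ± 0.31, adjusted p = 0.000357), and Sphk1, the kinase that makes sphingosine 1-phosphate, from 27.0, 26.3 and 34.2 to 7.17, 6.08 and 6.34 (-2.15 ± 0.11, adjusted p = 4.37e-07). The receptor gene Flt1 (-1.15) and Vegfc (-1.15) also fell, and Flt1 was at 2.96 in Sox7+/- replicate 3, within the range of the Sox7-/- arrays, 2.62 to 3.49. Ihh, a hedgehog ligand of visceral endoderm, rose from 38.3, 36.4 and 28.7 to 80.8, 83.9 and 79.8 (1.25 ± 0.10), Bmp6 by 1.79, the peptide apelin gene Apln by 2.03 and the chemokine Cxcl12 by 1.13, which was 0.88 without Sox7+/- replicate 3. Vegfa (0.07) was not called.

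Of 17 cardiac genes above background 7 were lower and 3 higher, with a median of -0.66, the lowest of the lists. Nkx2-5, a homeodomain factor of heart and, in other tissues, of gut mesoderm and spleen, fell from 1.55, 1.46 and 3.78 to 0.152, 0.193 and 0.171 (-3.58 ± 0.30, adjusted p = 1.52e-05). Nppb, the natriuretic peptide BNP, fell from 4.16, 3.94 and 6.09 to 0.733, 0.643 and 0.638 (-2.79 ± 0.17), and Myocd, a co-activator of serum response factor, from 0.607, 0.55 and 0.398 to 0.0768, 0.0637 and 0.0882 (-2.76 ± 0.43). None of them overlapped between groups, and Myocd was above background on 1 of the Sox7-/- arrays. Tbx5, Mef2c, Myh6, Tnnt2 and Actc1, further defining genes of heart muscle, were not above the background filter, while Myl7 (1.21), Tnnt1 (1.21) and Hand1 (1.28) were higher. Hand1 was not called without Sox7+/- replicate 3 (adjusted p = 0.117), without Sox7-/- replicate 1 (adjusted p = 0.144), or without Sox7+/- replicate 1 or Sox7-/- replicate 2.

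Metabolic and secretory lists moved less. Of 34 cholesterol and fatty acid synthesis genes 32 had a difference above 0 and 19 passed the p threshold upwards, but 3 exceeded 2-fold, among them the desaturase Scd1 (1.63) and Fads2 (at least 1.48-fold, with a fitted difference of 0.74 without Sox7+/- replicate 3), and the median was 0.33. Of 26 nutrient transporters 3 were higher and 1 lower, among them Slc7a9, the light chain of the cystine transporter, which was below background in Sox7+/- cells, reached 0.929, 0.995 and 0.909 in Sox7-/- cells and was at least 8.63-fold higher, and the zinc importer Slc39a4 (2.03). Slc7a5, a transporter of large amino acids, was lower (-1.33), although a second probe was not called (-0.73). Of 16 iron genes Bmp6, Cybrd1 and the exporter Slc40a1 (1.10, and 0.75 without Sox7+/- replicate 3) were higher and none lower. Of 17 retinoid genes Ttr, Rdh10 and Rarres1 were higher, and Cyp26b1, which degrades retinoic acid, was at least 3.45-fold lower. Of 14 fibrinolysis and anticoagulant genes 2, among them Cpb2, were higher, and Plaur, the urokinase receptor, fell from 20, 18.7 and 24.3 to 9.69, 8.08 and 8.91 (-1.23 ± 0.11), with a list median of -0.46. Without Sox7+/- replicate 3, 1 gene of this list was higher and 3 were lower, and Cpb2 was at 0.92. It was also under 2-fold without Sox7+/- replicate 2 or Sox7-/- replicate 2 or 3. None of 33 secretory pathway genes was higher, and Creb3l1 (-1.51), Chac1 (-1.43), Trib3 (-1.37) and Atf3 (-1.26) were lower while the chaperone Hspa5 (0.04) was level. In Sox7+/- replicate 3 Chac1 was at 1.47, below all Sox7-/- arrays, and Trib3 at 3.33, just above them, while the other Sox7+/- replicates had 6.71 or more of Chac1 and 11.5 or more of Trib3. Without Sox7+/- replicate 3 the differences were -2.22 and -2.01, and without any one of the other XEN-like arrays neither gene was called (adjusted p = 0.116 and 0.0659 without Sox7-/- replicate 1). Of 28 cell cycle genes Myc (-1.90) and Ccnd2 (-1.95) were lower and Cdkn1c (1.32) higher, the last under 2-fold without Sox7+/- replicate 3 (0.97).

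Markers of other cells were examined beside these results. Of 18 pluripotency genes tested 7 were higher and 1 lower, with a median of 0.79. Esrrb, a nuclear receptor of ES cells, was at 0.186, 0.154 and 0.168 in Sox7+/- and 4.29, 4.35 and 3.91 in Sox7-/- XEN-like cells (4.63 ± 0.08, adjusted p = 6.97e-10), against 75.6 to 79.8 and 179 to 202 in the ES cells of each genotype. Pou5f1, Oct4, was at 0.611, 0.713 and 1.77 against 4.44, 2.02 and 1.48 (1.37 ± 0.48, adjusted p = 0.0475), so that the groups overlapped. Without Sox7-/- replicate 1, the one on the other slide, its difference was 0.91 and not called (adjusted p = 0.168), which left 6 higher genes in the list. It was not called either without Sox7+/- replicate 1 or 2 or Sox7-/- replicate 2. Sox2, which stood at 8.12 or more on every ES array, was not well above background on any XEN-like array, and Nanog (0.11) and Klf4 (0.36) were not called. The summed level of the pluripotency list was 654 to 823 in Sox7+/- and 718 to 767 in Sox7-/- cells. Trophectoderm markers were higher in 6 and lower in 1 of 13 tested, summed 6.45 to 7.43 against 10.7 to 12.2, with Elf5 below background. The definitive endoderm and gut list had 4 higher and 1 lower of 8, summed 110 to 152 against 136 to 151, with Cxcr4 and Pdx1 below background. The endothelial list had 1 higher and 1 lower of 7, summed 85.1 to 92.1 against 91.0 to 98.6, the streak list 1 and 1 of 5, summed 49.3 to 53.6 against 52.2 to 53.4 with T and Mixl1 below background, and the list of two-cell-like cells 1 higher of 6, summed 27.3 to 32.6 against 31.2 to 33.0. The part of such cells in the results was not tested, and fewer cells of a kind cannot be told apart from less RNA per cell. Housekeeping genes had a median of -0.06 with 1 of 16, Gusb, higher. Of 21 glucocorticoid response genes, of interest because Dex also acts on the native receptor, 4 were higher and 2 lower with a median of 0.25, which was 0.10 without Sox7+/- replicate 3. The receptor gene Nr3c1 itself was lower by its brightest probe, from 4.11, 3.61 and 4.18 to 1.60, 1.87 and 1.94 (-1.14 ± 0.09), and a second probe was not called (0.87).

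The genes with the largest differences that stand in no list came from many functions. Tmprss2, an apical serine protease, was at 0.142, 0.236 and 0.0308 against 1.83, 1.64 and 1.43 (4.01 ± 0.56), the complement protease C2 at 0.142, 0.131 and 0.0266 against 1.04, 1.08 and 1.03 (3.73 ± 0.50), both above background on 2 of 3 Sox7+/- arrays. Pygl, the liver form of glycogen phosphorylase, was at 0.281, 0.267 and 0.261 against 2.83, 2.64 and 2.37 (3.27 ± 0.08), and 4933402E13Rik at 0.264, 0.264 and 0.294 against 2.96, 2.80 and 2.67 (3.36 ± 0.14). All 4 were apart on every array, which the choice of these genes required. In the other direction stood Doc2b, a calcium sensor of exocytosis, with 1.07, 0.886 and 1.32 against 0.0623, 0.0532 and 0.0913 (-4.00 ± 0.21, and -2.20 with normexp background correction), Ccdc80, a matrix protein, with 2.63, 2.07 and 1.06 against 0.156, 0.186 and 0.197 (-3.32 ± 0.27), and Ifitm1 with 4.10, 3.72 and 2.91 against 0.471, 0.381 and 0.443 (-3.04 ± 0.12, -3.21 by a second probe). Insrr, an insulin receptor relative, was uneven among the Sox7-/- arrays, at 1.31, 0.105 and 0.22 against 3.25, 2.85 and 3.80 (-3.40 ± 0.73), and differed by -4.43 without the first of them. Fras1 (-3.32 ± 0.99), Mpeg1 (-3.05 ± 0.33), Diras2 (-2.94 ± 0.49) and the phosphatase Ptprb (-2.92 ± 0.30) completed the 10 lowest. Doc2b, Fras1 and Ptprb were above background on 1 and Mpeg1 on 2 of the 3 Sox7-/- arrays. With normexp Fras1 was at -1.84, Ptprb at -1.48 and Mpeg1 at -1.92. Fras1 was not called without Sox7-/- replicate 1 (adjusted p = 0.0743), which is the array on the other slide, nor without Sox7-/- replicate 2 or Sox7+/- replicate 1 or 2. Epb41l5 was the single gene of 3598 with several tested probes whose probes were called in both directions, and is left without a direction.

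The same genotypes were compared in the ES cells, which had been cultured to day 4 without Dex, on other arrays, to set the differences with active Gata6GR beside those without it. On the same probes 268 were higher (1.16%) and 1265 lower (5.46%) in Sox7-/- ES cells. Of the 904 probes higher in Sox7-/- XEN-like cells 81 were also higher in ES cells (8.96%) and 122 were lower there (13.5%). Of the 797 lower probes 269 were also lower in ES cells (33.8%) and 9 were higher (1.13%). The difference between both comparisons, tested as an interaction in the same fit, was called in the same direction for 564 of the 904 (62.4%) and 214 of the 797 (26.9%). Over all 23171 probes it was called higher for 1398 and lower for 525. The XEN-like arrays that gave the 904 and 797 calls also enter the interaction, which favours such calls. Apical and junction genes were among those that changed sides. Apom was at 1.92, 2.22 and 2.09 in Sox7+/- and 0.374, 0.495 and 0.376 in Sox7-/- ES cells, the reverse of its order in XEN-like cells (interaction 6.35, adjusted p = 8.11e-08). Slc7a9 (interaction 7.47), Lgals2 (6.80), Cldn6 (4.75), Mttp (4.38) and Cfc1 (3.41) did the same. In the junction list no gene was higher and 17 of the 35 were lower in Sox7-/- ES cells. By contrast Ccdc80, Insrr, Ccn2 and Nppb were lower in Sox7-/- cells of both states, and their interactions were not called.

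The ES cultures themselves held endoderm transcripts. Cubn was at 44.3, 41.3 and 45.1 in Sox7+/- ES cells, above its level in Sox7+/- XEN-like cells, and at 19.1, 17.1 and 25.3 in Sox7-/- ES cells. Lrp2 was at 27.0, 26.5 and 26.7 against 5.12, 4.40 and 7, and 9 of the 23 visceral endoderm markers were lower and 1 higher in Sox7-/- ES cells. The part of such transcripts in the ES difference and in the interactions was not tested.

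**Figure D4:**
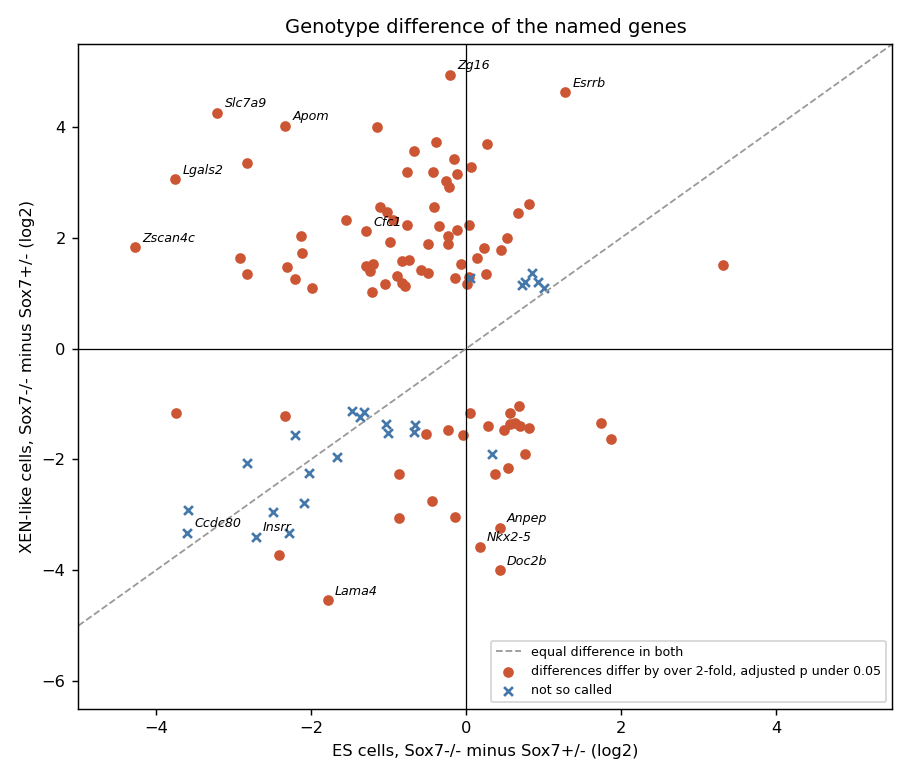
Log2 difference between Sox7-/- and Sox7+/- cells in ES cells (horizontal) and in XEN-like cells (vertical) for the 115 named genes other than Sox7 that were called in XEN-like cells. Circles are the 91 genes whose differences differ by over 2-fold with an adjusted p under 0.05, crosses are the others, and the dashed line marks equal differences. The genes were chosen by the XEN-like arrays, which favours circles. Of the 69 genes higher in Sox7-/- XEN-like cells 21 were called lower in ES cells, and of the 46 lower genes 18 were also called lower in ES cells.

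Genes lower in Sox7-/- cells were gathered on parts of 2 chromosomes, a pattern found after the values were seen and given without a test. The genes were placed by their probes (mm9) in windows of 5 Mb, of which 391 held at least 10 tested genes, with medians between -0.26 and 0.58 outside the parts named here. On chromosome 10 all 8 windows from 30 to 70 Mb had a median below -0.3 in both XEN-like and ES cells, 2 of which held fewer than 10 genes (3 and 8). Among windows with so few genes, medians elsewhere were as low as -1.30 in XEN-like cells. This stretch held 139 tested genes with a median difference of -0.72 in XEN-like and -0.69 in ES cells, against 0.09 and 0.14 on the rest of the chromosome. Of the 139 genes 123 were below 0 in XEN-like cells (88.5%), 40 were called lower (28.8%) and 3 higher. The medians of the 3 Sox7-/- XEN-like arrays against the mean of the Sox7+/- arrays were -0.71, -0.74 and -0.77, and those of the 3 ES arrays -0.68, -0.67 and -0.68, and the XEN-like median was -0.77 without Sox7+/- replicate 3. On chromosome 14 the first 10 Mb, 2 windows of 9 and 15 genes, had medians of -0.64 in XEN-like and -0.735 in ES cells over 24 genes, against 0.10 and 0.15 on the rest of the chromosome, where Sox7 itself lies. It was less even than the stretch of chromosome 10, with 17 of the 24 genes below 0 in XEN-like cells (70.8%), 4 lower and 2 higher. The low values lay mostly among genes with provisional names at its start, and near its end Pxk (1.01) and Kctd6 (1.09) were higher. Both stretches hold 1.29% of the tested genes and 44 of the 371 placed genes called lower (11.9%).

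The stretch of chromosome 10 touches several results above. It holds Lama4 and P4ha1 of the matrix lists, the stress gene Ddit4 (-2.06), which counts among the glucocorticoid response genes, Nepn of the gut list (-1.89, and -2.85 without Sox7+/- replicate 3, but not called without any one of the other XEN-like arrays), Psap (-0.95) and Nodal (-0.23). It also holds Fyn (-2.95), Lin28b (-2.76), Cd24a (-2.27) and Foxo3 (-1.94), named here after their values were seen. Smpdl3a (2.0) and Frk (2.02) lie there and were higher. Of the higher factors, lipoprotein, apical and junction genes described above none lies in either stretch. The copy number of these stretches was not measured on these arrays, and line and genotype cannot be told apart here either.

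**Figure D5:**
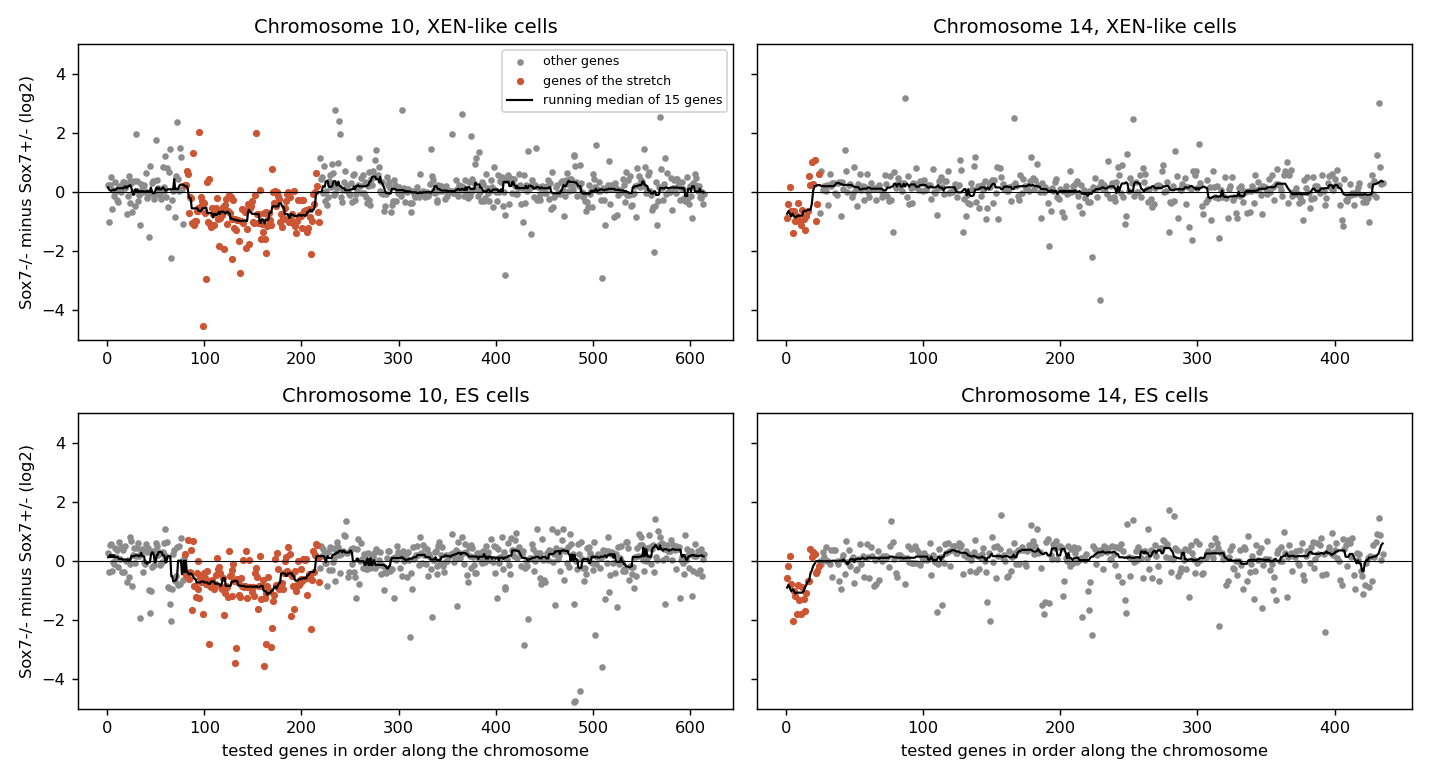
Log2 difference between Sox7-/- and Sox7+/- cells for the tested genes of chromosomes 10 (left) and 14 (right), in their order along the chromosome, in XEN-like (top) and ES cells (bottom). Red points are the genes of the stretches, the line is the running median of 15 genes, and Sox7, on chromosome 14, lies below the axis in both rows. The line falls to about the stretch medians of -0.72 and -0.64 in XEN-like cells over most of the red points, and is nearer 0 along most of both chromosomes.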

How the data were processed

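Labelled RNA of the 12 samples had been hybridized to Agilent mouse arrays with 1 dye, and Agilent Feature Extraction 10.7.3.1 is the reader named in the submitters' processing notes. The intensity deposited for each array is a background-subtracted signal, unscaled between arrays. A deposited series table holds intensity within 1% of the mean spot signal, without background subtraction. Here log2 intensity was set relative to each array's 75th percentile, without outlier spots and with the spots of a probe averaged. A probe entered the test if all 3 arrays of either XEN-like group had it well above background (23171 of 55681 probes). The fit used limma 3.58.1 (R 4.3.3), all 12 arrays and a mean for each group. RefSeq symbols matched 31378 probes. The share of spots well above background was 41.7% to 52.3%, none was saturated, and the number of arrays limits the precision. The comparison and the lists were chosen with earlier results of these data known. The text names Sox7, the called factors and Gata4, Gata6, Sox17 and Foxa2. It also names the 10 largest differences each way among called probes above background in both groups whose groups did not overlap. Members of each list with the largest differences, and further members as examples, are named too. Tested on simulated data for the XEN-like comparison (23137 probes), the fit found 90 of 100 probes changed by 1.5 and 97 of 100 changed by 2 on the log2 scale, with 5 false calls. The simulated noise was independent between probes and had the same spread on every array. It held no array that stood apart as Sox7+/- replicate 3 does, so these counts do not cover that case. A few named genes and 1 motif are not reported here. Alternatives covered background correction, scaling, filters, blocks and left-out arrays.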

Additional observations from a re-analysis of the deposited data

Results flagged for a closer look

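Of the 115 named genes other than Sox7 called in XEN-like cells, 91 had a genotype difference that differed from that in ES cells. These genes were chosen for their differences on the XEN-like arrays that also enter this contrast, which favours such calls. In its ES part genotype and slide cannot be told apart. The test was limma's interaction contrast, and a call needed an adjusted p under 0.05 and over 2-fold. The 15 listed here are those among the genes named for the largest differences each way in XEN-like cells. Slc7a9 and Lgals2, given above, are not among these 15 and had larger interactions than Apom. The values are the log2 difference in XEN-like cells minus that in ES cells. They were 6.355 for Apom, 6.19 for 4933402E13Rik, 5.16 for Tmprss2, 5.14 for Zg16, 4.14 for the dimmer Cubn probe, 4.11 for C2, 3.61 for Amn, 3.59 for Myo7a, 3.35 for Esrrb and 3.21 for Pygl. They were -4.44 for Doc2b, -3.75 for Nkx2-5, -3.67 for Anpep, -3.06 for the Ifitm1 probe with the larger difference and -2.19 for Mpeg1. The genotype difference was higher in XEN-like cells, against ES cells, for 1398 of all 23171 tested probes and lower for 525. The endoderm transcripts of the ES cultures are given above, and their part was not tested.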

How the results depend on the processing

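The counts of 904 higher and 797 lower probes became 365 and 339 with normexp background correction, 1466 and 425 with spike-in scaling and 4970 and 3720 with no minimum fold. A filter on all 6 XEN-like arrays gave 489 higher and 624 lower probes, no filter 1289 lower, and 129 were lower in the deposited table. Leaving out each XEN-like array in turn gave 837 to 998 higher and 628 to 976 lower probes. The share of higher among called probes was 53.2% and moved to 77.5% with spike-in scaling and 90.0% in the deposited table. It fell to 43.9% with the filter on all 6 XEN-like arrays and 45.9% without a filter. Scaling by the median of probes above background gave 45.5%, and leaving out Sox7-/- replicate 3 gave 49.9%. Which direction held more calls thus depended on the processing. With the replicate number as a block 904 probes were higher and 841 lower. Adding a slide term gave 837 and 679, the same numbers as leaving out Sox7-/- XEN-like replicate 1. Only Sox7-/- XEN-like cells lay on both slides, so this term rests on that replicate and takes it out of the comparison. A fit to the second slide alone, which lacks the same replicate, gave 786 and 619. Neither fit is therefore a separate check of a slide effect, though both count among the alternatives below. Deviations of same-numbered Sox7+/- and Sox7-/- XEN-like arrays correlated at 0.02, 0.09 and 0.06, so the numbers were not taken as pairs. For the 120 named genes under 20 alternatives, 2186 of 2362 values kept direction and side of the threshold, 171 lost the call, 1 gained it and 4 changed sign. The last were Sox17 at -0.0013 without Sox7+/- replicate 3 and -0.0026 without Sox7-/- replicate 2, and Foxa2 at -0.051 with scaling by the median of probes above background and -0.14 without Sox7+/- replicate 3, and neither was called. Leaving out each array in turn gave -0.0026 to 0.176 for Sox17 and -0.14 to 0.107 for Foxa2. The cause of these shifts was not tested. Dim probes limit the folds given as bounds.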

Other observations

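The nuclear noncoding RNA Malat1 was at 4.36, 4.00 and 4.69 in Sox7+/- and 1.85, 1.89 and 2.21 in Sox7-/- XEN-like cells (log2 difference -1.13 ± 0.19, adjusted p = 0.00125 by limma). Neat1 was at 37.4, 35.3 and 32.4 against 20.7, 20 and 22.8 (-0.73 ± 0.18) and was not called. Kcnq1ot1 was at 0.689, 0.747 and 4.73 against 0.493, 0.345 and 0.481, so that its difference of -1.63 was -0.72 without Sox7+/- replicate 3. These genes were chosen after their values were seen. Over the 3238 lincRNA region probes tested the median difference was -0.21, and -0.16 without that replicate, against 0.08 over the 17167 probes with a RefSeq symbol.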
